A study of Mus musculus with 18 samples.

Results

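The transcripts of 10 C-type lectin receptors were described across 6 groups of mouse peritoneal macrophages: Clec4a1, Clec4a2, Clec4a3, Clec4d, Clec4e, Clec4n, Clec5a, Clec7a, Clec12a and Clec2d. They were chosen by gene symbol, each matched to its Ensembl gene number, out of 13598 genes with a value in the series. Levels are in FPKM (fragments per kilobase of transcript, scaled to the mapped fragments of a library). A receptor was given the larger of 2 sums in each library, over its first-exon rows or over its last-exon rows. Only rows on the annotated strand of the gene that overlapped its annotated span were summed. By this rule 9 of the 10 had a value, and all 9 were among the 9707 genes tested, which reached 1 FPKM in at least 3 of 18 libraries. Clec7a had no rows under its own number, where the annotation lists it as a polymorphic pseudogene, and it was followed by a last-exon row at its annotated end that the files carry under the number of Olr1. That row was chosen after the data were seen.

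The study asked how lysines in the cytoplasmic TIR domain of TLR4, the receptor for lipopolysaccharide (LPS), bear on the response of macrophages to LPS. Peritoneal macrophages came from wild-type mice (WT) and from mice in which TLR4 carries an arginine in place of a lysine, either K730R or K810R, both made with CRISPR/Cas9 on the C57BL/6 background. The cells had been elicited with thioglycolate, an irritant that draws leukocytes into the peritoneal cavity. The 6 groups were WT control, WT with LPS, K730R control, K730R with LPS, K810R control and K810R with LPS, with 3 libraries each, and LPS was given at 100 ng/ml for 6 h. Whether the 3 libraries of a group came from separate mice was not given in the sources used here, so p-values measure the spread between libraries.

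C-type lectin receptors are membrane proteins whose extracellular fold binds glycans, lipids or proteins of microbes, dying cells and other cells. Most activating members signal through an immunoreceptor tyrosine-based activation motif, either their own or that of an adaptor (FcRγ, encoded by Fcer1g, or DAP12, encoded by Tyrobp), to the kinase Syk and the CARD9-BCL10-MALT1 complex that activates NF-κB. Inhibitory members carry an inhibitory motif that recruits the phosphatases SHP-1 and SHP-2.

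All 10 genes lie on chromosome 6 (GRCm38 coordinates). The 6 Clec4 genes stand within 368 kb (chr6:122921848-123289870), and Clec2d, Clec12a and Clec7a within 292 kb (chr6:129180615-129472779) in the region of the natural killer gene complex. Clec5a stands apart at chr6:40574894-40585821, on the minus strand. The Clec4a genes and their neighbours are closely related copies, so reads shared between them could have been split by the counting.

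The macrophage identity of the libraries was checked first. Of 7 macrophage markers 6 had values, and their summed level, led by Lyz2, was 11633 to 14785 FPKM in control libraries and 7289 to 10057 FPKM with LPS. Of these 6 genes 1 was called higher and 4 lower with LPS in WT, 1 and 4 in K730R, and 2 and 1 in K810R. Of 10 neutrophil markers 9 had values, and they summed to 34.9 to 63.7 FPKM in control libraries and 186 to 253 FPKM in LPS libraries. Most of this was S100a8, at 22.1 to 45.1 FPKM in control and 165 to 239 FPKM with LPS, which was called higher with LPS in all 3 genotypes, as was Camp (at most 0.792 FPKM in control and 3.45 to 6.38 FPKM with LPS). Of the 5 neutrophil markers tested these 2 were called higher in each genotype, and 1 was called lower, Retnlg in WT, at 1.10 to 2.67 FPKM in control and listed at 0 in all 3 LPS libraries. Camp reached the filter of 1 FPKM only with LPS and Retnlg only in control. Mmp8 was at 4.97 to 20.6 FPKM and was not called (-0.63 with LPS in WT, adjusted p = 0.019 in limma), while the defining neutrophil genes Ly6g, Cxcr2 and Mpo stayed at or below 0.64 FPKM in every library. The T cell genes Cd3d, Cd3e and Cd3g stayed at or below 0.58 FPKM. Intestinal epithelial markers (6 genes, led by Reg3b and Reg3g) differed in level between the groups: they summed to 0.0928 to 10.3 FPKM in WT libraries, 42.6 to 68.4 FPKM in K730R libraries, 52.6 to 110.4 FPKM in K810R control and 0.127 to 20.04 FPKM in K810R with LPS. The 4 lung epithelial markers summed to 1.25 to 34.0 FPKM in K810R with LPS, where Scgb1a1 reached 30.9 FPKM, and to at most 3.94 FPKM in every other group. The 3 monocyte markers summed to 11.6 to 41.0 FPKM in control libraries and to 205 to 463 FPKM in LPS libraries. This was almost wholly through Ly6c2, which is also an interferon-responsive gene. Ccr2 went the other way, at 1.50 to 6.32 FPKM in control and 0.102 to 1.27 FPKM with LPS. Of the 3 markers 2 were called higher and 0 lower with LPS in WT, and 1 and 1 in each mutant. Tlr4 itself stood at 11.7 ± 2.41 FPKM (SD, n = 3) in WT control, 10.4 ± 1.46 in K730R control and 12.5 ± 1.23 in K810R control, and at 5.17 ± 0.497, 4.68 ± 0.373 and 4.73 ± 0.547 FPKM with LPS in the same order. The part of other cells in the values below was not tested, and in bulk RNA fewer cells of a type cannot be told apart from less RNA per cell.

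In WT control macrophages Clec4d had the highest level of the 10, at a mean of 392 FPKM, followed by the Clec7a last exon at 249.7 FPKM. Clec4e (66.6), Clec4a1 (51.4), Clec12a (48.6), Clec4a3 (47.7), Clec4a2 (39.8), Clec4n (36.8) and Clec2d (33.7) followed as mean FPKM, and each of these overlapped its next neighbour down to Clec2d. Clec5a was lowest at 10.4 FPKM, without overlap with Clec2d. With LPS the order in WT changed at the top: Clec4e led at 1085 FPKM and Clec4d followed at 698 FPKM, without overlap between them. The same pair led in K730R with LPS (1141 and 738 FPKM) and in K810R with LPS (1113 and 696 FPKM). FPKM is a level per length of transcript, but these levels rest on unlike rows. Clec4a1 had values from last-exon rows only, Clec4a2 from first-exon rows only, and Clec7a from its last-exon row. The order of the receptors is therefore a description.

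**Figure D1:**
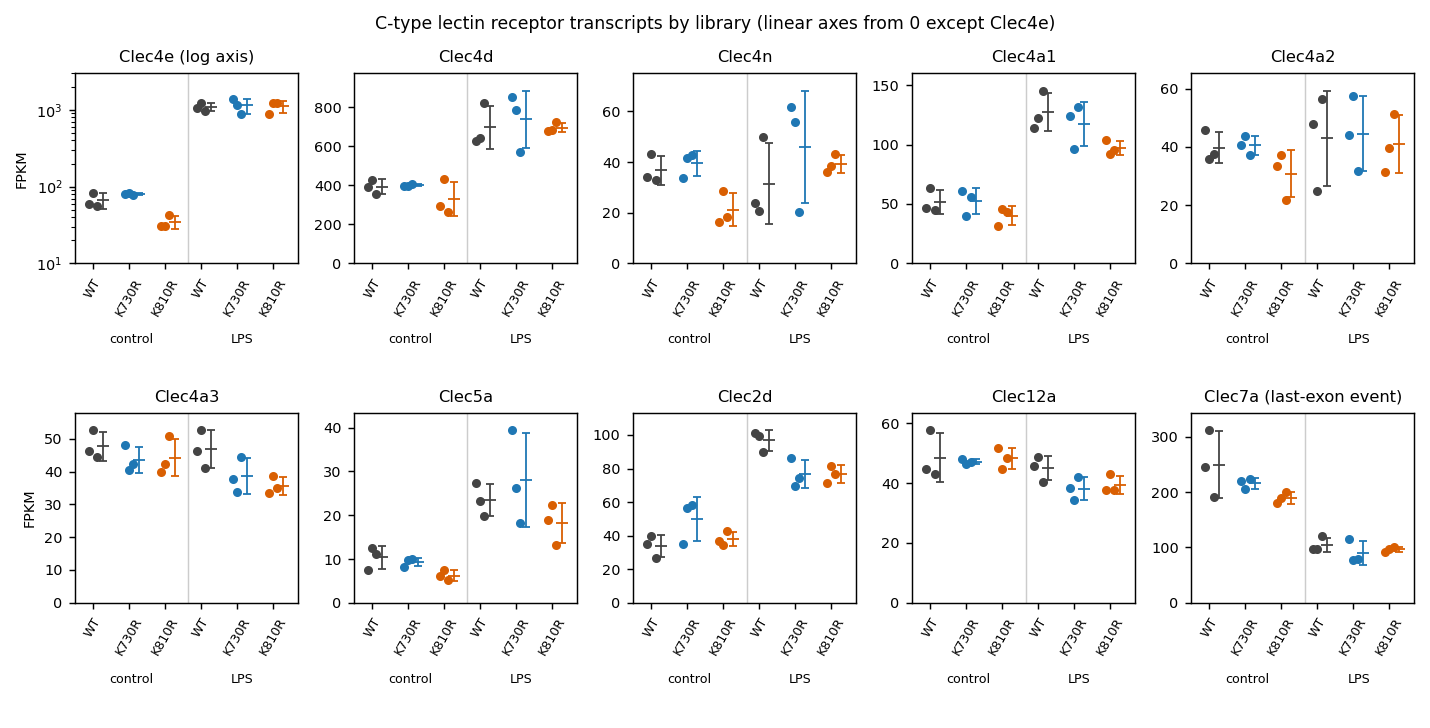
FPKM of each receptor (vertical axes, linear from 0 except Clec4e on a log axis) in the 3 libraries of each group, WT in grey, K730R in blue and K810R in orange, with the mean and SD beside the points. Clec4e, Clec4d, Clec4a1, Clec5a and Clec2d sit higher with LPS in all 3 genotypes, and the Clec7a last exon sits lower.

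LPS raised 5 of the 9 tested receptors in WT macrophages, Clec4e, Clec4d, Clec4a1, Clec5a and Clec2d, and lowered none of the 9. Over all genes tested 10.4% were called higher with LPS in WT and 23.9% lower, at an adjusted p below 0.01 in limma with Benjamini-Hochberg adjustment. The same 5 were called higher in K730R, where 9.32% of all genes were called higher and 26.5% lower, and in K810R, where 9.08% were called higher and 19.7% lower. The median log2 difference of the 9 receptors was 0.82 in WT, 0.64 in K730R and 0.997 in K810R, against -0.28, -0.36 and -0.26 over all genes tested. The Clec7a last exon is not among the 9 and went the other way. It was called lower in each genotype (-1.23, -1.27 and -0.97 in the same order). FPKM is a relative unit. Scaling the libraries by the median of ratios shifted the median of all genes by 0.26, 0.32 and 0.23 in the 3 genotypes, and the split of WT calls went from 1012 higher and 2316 lower to 1494 higher and 1368 lower. In K730R it went from 905 and 2568 to 1496 and 1299, and in K810R from 881 and 1916 to 1196 and 1125. With that scaling the 5 receptors were again the ones called higher, and their group's median was 1.15, 1.04 and 1.27. In the WT comparison the libraries of those 5 receptors did not overlap between LPS and control, as for 15.5% of all genes in the higher direction.

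Clec4e encodes Mincle, an FcRγ-coupled receptor for mycobacterial cord factor and for the nuclear protein SAP130 of dying cells. In control libraries it stood at 60.3, 83.8 and 55.7 FPKM in WT, at 81.3, 83.3 and 78.7 FPKM in K730R and at 30.6, 31.1 and 42.9 FPKM in K810R. With LPS it stood at 1058, 1222 and 976 FPKM in WT, at 1393, 1145 and 885 FPKM in K730R and at 893.5, 1233 and 1211 FPKM in K810R. Every LPS library exceeded every control library by a wide margin, and the LPS groups of the 3 genotypes overlapped each other while the K810R controls lay below all other controls.

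On the log2(FPKM + 1) scale Clec4e differed between LPS and control by 4.02 in WT (95% interval 3.61 to 4.43, adjusted p = 1.7e-10 in limma), 3.77 in K730R (3.36 to 4.18) and 4.96 in K810R (4.55 to 5.37). These are 16.3-fold, 13.7-fold and 31.1-fold differences. The difference of the responses, K810R minus WT, was 0.94 (0.36 to 1.51) and did not pass the threshold (adjusted p = 0.15 in limma).

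The RefSeq window before the start of Clec4e (GRCm38.p6, chr6:123289872-123290121, minus strand, 250 bases) is shown because Clec4e made the widest response. The capitals mark the only match to the motifs searched, a C/EBP motif (TTGCNNAA, found on the opposite strand) at bases -66 to -59 from the start:
Clec4e: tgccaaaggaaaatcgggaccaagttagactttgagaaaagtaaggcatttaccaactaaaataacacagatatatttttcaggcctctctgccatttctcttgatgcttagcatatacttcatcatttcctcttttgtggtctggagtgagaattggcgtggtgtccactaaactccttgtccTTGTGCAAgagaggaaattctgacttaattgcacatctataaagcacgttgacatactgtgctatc

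Windows of the same length were in the RefSeq table for 9 of the 10 receptors, 11 windows in all, and Clec4n had none. The C/EBP motif was in 2 of the 11 (Clec4e and Clec12a) and in 9.56% of 32851 windows of all genes. The AP-1 motif (TGANTCA) was in 1 (Clec12a) against 6.75%, the PU.1 motif (GAGGAAG) in 4 against 10.6%, and the interferon-stimulated response element in 1 (Clec2d) against 2.98%. The κB consensus was in none of the 11 and in 7.25% of all windows. Both strands were searched, and a match is a run of letters, not a bound site. The Clec12a window lies inside the first-exon row measured here, not before it.

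Clec4d encodes MCL, which pairs with Mincle and FcRγ. It stood at 393, 430 and 354 FPKM in WT control, at 397, 397 and 407 FPKM in K730R control and at 295, 431 and 265 FPKM in K810R control. With LPS it stood at 627, 642 and 824 FPKM in WT, at 855, 787 and 571 FPKM in K730R and at 680, 683 and 724 FPKM in K810R. All LPS libraries lay above all control libraries, but from a far higher start than Clec4e, and the log2 difference was 0.82 in WT (0.45 to 1.20, adjusted p = 0.0012 in limma), 0.86 in K730R and 1.10 in K810R.

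Clec4n encodes dectin-2, an FcRγ-coupled receptor for fungal mannans. It stood at 34.2, 43.4 and 32.9 FPKM in WT control, 33.9, 41.6 and 43.0 FPKM in K730R control and 16.5, 28.8 and 18.4 FPKM in K810R control. With LPS it stood at 23.9, 20.7 and 50.1 FPKM in WT, 61.7, 55.8 and 20.5 FPKM in K730R and 36.3, 38.5 and 43.2 FPKM in K810R. The LPS libraries of WT and of K730R were split among themselves, and in K810R alone the LPS libraries lay above the controls. The log2 difference between LPS and control was -0.31 in WT (-1.08 to 0.45), 0.08 in K730R (-0.69 to 0.84) and 0.89 in K810R (0.13 to 1.66, adjusted p = 0.058 in limma), and none passed the threshold. The difference of the K810R and WT responses was 1.21 (0.13 to 2.28, adjusted p = 0.32 in limma).

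K730R with LPS replicate 3 had the lowest of its group's values for Clec4n, Clec4d, Clec4e and Clec5a, whereas WT with LPS replicate 3 had the highest of its group's values for Clec4n and Clec4d and the lowest for Clec4e and Clec5a. Clec4n spread over 20.5 to 61.7 FPKM in the K730R group.

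Clec5a encodes MDL-1, a DAP12-coupled receptor of myeloid cells. It stood at 7.41, 12.6 and 11.1 FPKM in WT control, 8.27, 9.67 and 10.03 FPKM in K730R control and 6.08, 7.44 and 5.15 FPKM in K810R control. With LPS it stood at 27.3, 23.3 and 19.8 FPKM in WT, 39.5, 26.2 and 18.3 FPKM in K730R and 19.0, 22.4 and 13.3 FPKM in K810R. Every LPS library exceeded every control library, though Clec5a had the lowest mean of the 10 receptors in all 6 groups. Its log2 difference was 1.12 in WT (0.59 to 1.66, adjusted p = 0.0018 in limma), 1.43 in K730R (0.89 to 1.97) and 1.39 in K810R (0.86 to 1.93). The WT call was lost without WT control replicate 1 (0.92, adjusted p = 0.013) and without WT with LPS replicate 1 (1.01, adjusted p = 0.011).

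The window before the start of Clec5a (GRCm38.p6, chr6:40585806-40586055, minus strand) held the PU.1 motif at 2 places, bases -82 to -76 and -56 to -50, both on the opposite strand and in capitals here. It is shown as the one window with a repeated match:
Clec5a: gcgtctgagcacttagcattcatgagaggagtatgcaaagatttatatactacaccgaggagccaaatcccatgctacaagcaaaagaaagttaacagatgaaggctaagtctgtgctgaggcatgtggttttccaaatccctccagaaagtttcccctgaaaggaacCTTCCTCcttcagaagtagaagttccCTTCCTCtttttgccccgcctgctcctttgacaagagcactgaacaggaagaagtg

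Clec7a encodes dectin-1, the β-glucan receptor, which signals through a motif of its own. Its last-exon row stood at 245, 313 and 191.5 FPKM in WT control, 219.8, 205 and 224 FPKM in K730R control and 179.8, 189 and 201 FPKM in K810R control. With LPS it stood at 96.7, 97.0 and 119.9 FPKM in WT, 115, 77.5 and 78.7 FPKM in K730R and 91.4, 97.2 and 101 FPKM in K810R. All LPS libraries lay below all control libraries, the opposite of Mincle and MCL. The last exon fell by 1.23 on the log2 scale in WT (adjusted p = 2.1e-05 in limma), by 1.27 in K730R (adjusted p = 1.4e-05) and by 0.97 in K810R (adjusted p = 2.4e-04). After median-of-ratios scaling it fell by 0.90 in WT, by 0.86 in K730R and by 0.70 in K810R, and the calls held.

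Rows were also given for transcripts with and without the third exon of Clec7a, of 135 bases (GRCm38, chr6:129468869-129469003, minus strand). In full-length dectin-1 this exon encodes the stalk between membrane and lectin domain. Its skipping gives the short form for which C57BL/6 mice are known. In the reference sequence printed here every forward reading frame meets a stop codon within the exon. The form that keeps the exon therefore has no open frame across it in this reference. The exon is in capitals, between 15 spliced bases of its neighbour exons on either side:
Clec7a exon 3: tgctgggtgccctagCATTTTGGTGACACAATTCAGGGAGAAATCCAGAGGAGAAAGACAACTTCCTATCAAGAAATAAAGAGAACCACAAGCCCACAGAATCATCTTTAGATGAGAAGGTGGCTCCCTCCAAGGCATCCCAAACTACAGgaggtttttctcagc

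The share of FPKM with this exon was 2.82% to 12.5% over the 18 libraries, so most signal came from the form without it. It was 6.38%, 6.63% and 4.94% in WT control and 12.2%, 9.57% and 5.91% in WT with LPS, which overlap. In K730R it was 4.46%, 4.95% and 7.11% in control and 10.9%, 12.5% and 8.84% with LPS, which do not. The exact 2-sided permutation test gave p = 0.3 in WT, p = 0.1 in K730R and p = 0.8 in K810R, and 0.1 is the smallest p that 3 libraries against 3 allow.

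The third exon of Clec5a (75 bases, GRCm38, chr6:40584356-40584430, minus strand) is also kept or skipped, and it is shown in the same way:
Clec5a exon 3: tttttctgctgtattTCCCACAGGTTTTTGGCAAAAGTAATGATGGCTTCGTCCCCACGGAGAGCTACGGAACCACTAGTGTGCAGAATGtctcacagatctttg

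Here the form with the exon took the larger share in most libraries, 14.7% to 85.4%, with a mean of 65.1% ± 10.2 (SD, n = 3) in WT control and 72.3% ± 13.4 in WT with LPS. LPS and control overlapped in all 3 genotypes. Optional exons were also listed for Clec4a2 (72 bases, kept in 9.01% to 79.4%), Clec4n (102 bases, 66.2% to 88.0%) and Clec4a3 (102 bases, 74.4% to 99.7%), and in each the LPS and control libraries overlapped in every genotype. The exons were picked after the data were seen, and the reads behind each share are unknown.

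**Figure D2:**
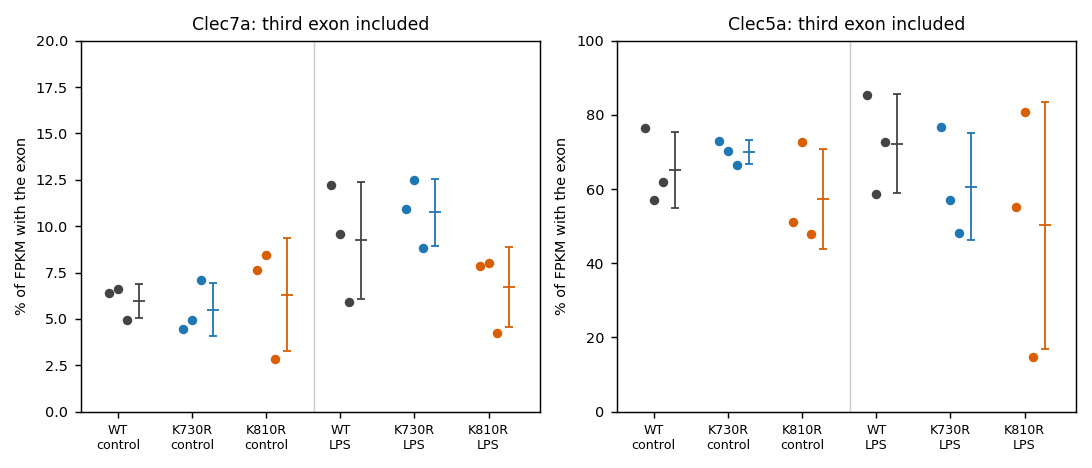
Percent of FPKM from transcripts with the third exon of Clec7a (left, axis to 20%) and of Clec5a (right, axis to 100%) in each library, with the mean and SD beside the points. Clec7a stays at or below 12.5% in all libraries, while Clec5a spreads from 14.7% to 85.4%.

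Clec4a2 encodes Dcir, an inhibitory receptor. It stood at 45.8, 35.8 and 37.7 FPKM in WT control and at 47.8, 24.9 and 56.5 FPKM in WT with LPS, so the groups overlapped. In the mutants it ranged over 37.2 to 43.9 FPKM in K730R control, 31.9 to 57.6 FPKM in K730R with LPS, 21.7 to 37.3 FPKM in K810R control and 31.5 to 51.4 FPKM in K810R with LPS. Its log2 difference between LPS and control was 0.04 in WT (-0.56 to 0.64), 0.10 in K730R (-0.51 to 0.70) and 0.40 in K810R (-0.20 to 1.01), and none passed the threshold.

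Clec4a1 and Clec4a3 encode close relatives of Dcir that lack its inhibitory motif, and the pair differed in response. Clec4a1 stood at 46.3, 63.2 and 44.8 FPKM in WT control and at 114, 122 and 145 FPKM in WT with LPS. In K730R it went from 61.2, 40.1 and 55.9 FPKM to 124, 95.8 and 131 FPKM, and in K810R from 31.1, 46.0 and 43.1 FPKM to 103, 91.6 and 95.6 FPKM. The LPS libraries lay above the controls throughout, and the log2 difference was 1.30 in WT (0.90 to 1.70, adjusted p = 3.4e-05 in limma), 1.15 in K730R and 1.27 in K810R.

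Clec4a3 stood at 46.2, 52.6 and 44.3 FPKM in WT control and at 46.4, 52.7 and 41.1 FPKM in WT with LPS, which overlap almost fully. In K730R it ranged over 40.4 to 48.1 FPKM in control and 33.7 to 44.6 FPKM with LPS, and in K810R over 39.8 to 50.7 FPKM in control and 33.3 to 38.8 FPKM with LPS, so that only the K810R groups did not overlap. Its log2 difference was -0.03 in WT (-0.31 to 0.25), -0.18 in K730R (-0.46 to 0.11) and -0.30 in K810R (-0.58 to -0.02, adjusted p = 0.085 in limma), and after median-of-ratios scaling the values were 0.29, 0.23 and -0.03.

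Clec12a encodes MICL, an inhibitory receptor for uric acid crystals and dead cells. It stood at 44.9, 57.8 and 43.0 FPKM in WT control and at 45.9, 48.7 and 40.5 FPKM in WT with LPS. In K730R it ranged over 46.4 to 48.1 FPKM in control and 34.2 to 41.9 FPKM with LPS, and in K810R over 44.6 to 51.8 FPKM in control and 37.6 to 43.0 FPKM with LPS. Its log2 difference was -0.10 in WT (-0.36 to 0.16), -0.30 in K730R (adjusted p = 0.051 in limma) and -0.29 in K810R (adjusted p = 0.072), and after scaling it was 0.23, 0.10 and -0.02. The K730R and K810R libraries with LPS lay below their own controls, but no call was made.

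The window before the RefSeq start of Clec12a (GRCm38.p6, chr6:129349994-129350243, plus strand) is shown because it held matches to 3 of the 5 motifs although the gene was not called. It lies wholly within the main first-exon row of Clec12a (129349964 to 129350511, 33.9 to 56.8 FPKM over 18 libraries). The matches therefore stand in transcribed sequence, not before the start measured here. In order the capitals mark AP-1 (bases -213 to -207), C/EBP (-140 to -133) and PU.1 (-61 to -55):
Clec12a: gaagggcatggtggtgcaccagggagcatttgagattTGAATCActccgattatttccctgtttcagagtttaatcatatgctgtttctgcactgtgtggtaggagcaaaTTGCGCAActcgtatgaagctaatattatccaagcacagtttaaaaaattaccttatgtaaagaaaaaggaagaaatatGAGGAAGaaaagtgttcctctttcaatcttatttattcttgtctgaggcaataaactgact

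Clec2d encodes Clr-b, a widely expressed ligand that engages the inhibitory receptor Nkrp1b/d of natural killer cells. It stood at 35.0, 39.6 and 26.5 FPKM in WT control and at 101, 99.4 and 89.6 FPKM in WT with LPS. In K730R it stood at 35.1, 56.6 and 58.5 FPKM in control and 86.2, 69.5 and 74.5 FPKM with LPS, and in K810R at 36.7, 34.4 and 42.8 FPKM in control and 71.2, 81.7 and 76.8 FPKM with LPS. LPS libraries exceeded controls in each genotype, and the LPS libraries of both mutants lay below those of WT. With LPS the K810R libraries lay wholly below WT for 7.89% of all genes. Neither mutant passed the threshold against WT with LPS (-0.33 in both, adjusted p = 0.69 in K730R and 0.29 in K810R in limma).

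The log2 difference of Clec2d between LPS and control was 1.51 in WT (1.13 to 1.89, adjusted p = 4.3e-06 in limma), 0.64 in K730R (0.26 to 1.02, adjusted p = 0.0081) and 0.997 in K810R (0.62 to 1.38, adjusted p = 3.2e-04). The difference of the K730R and WT responses was -0.87 (-1.41 to -0.34, adjusted p = 0.45 in limma) and did not pass the threshold. The first-exon row of Clec2d was at 0.892 FPKM in K730R control replicate 2 and listed at 0 in replicate 3, where the last exon read 56.6 and 58.5 FPKM, while first and last exon read the same 35.1 FPKM in replicate 1. With first-exon rows alone the K730R difference was 4.24. The K730R call was lost with no filter on low values (adjusted p = 0.012), with no trend in the variance (adjusted p = 0.0104) and with only the groups compared in the fit (adjusted p = 0.044), with the log2 difference still 0.64 in each. It was also lost without K730R control replicate 1 (0.40, adjusted p = 0.049) and without K730R with LPS replicate 1 (0.55, adjusted p = 0.037), 2 (0.70, adjusted p = 0.011) or 3 (0.65, adjusted p = 0.019).

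The window before Clec2d (GRCm38.p6, chr6:129180365-129180614, plus strand) is shown as the one with an interferon-stimulated response element, in capitals at bases -189 to -180:
Clec2d: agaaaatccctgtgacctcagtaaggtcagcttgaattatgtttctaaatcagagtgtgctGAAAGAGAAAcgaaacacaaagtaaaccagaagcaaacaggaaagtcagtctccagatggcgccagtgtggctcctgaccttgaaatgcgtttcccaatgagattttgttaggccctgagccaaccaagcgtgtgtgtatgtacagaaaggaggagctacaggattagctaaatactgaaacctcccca

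**Figure D3:**
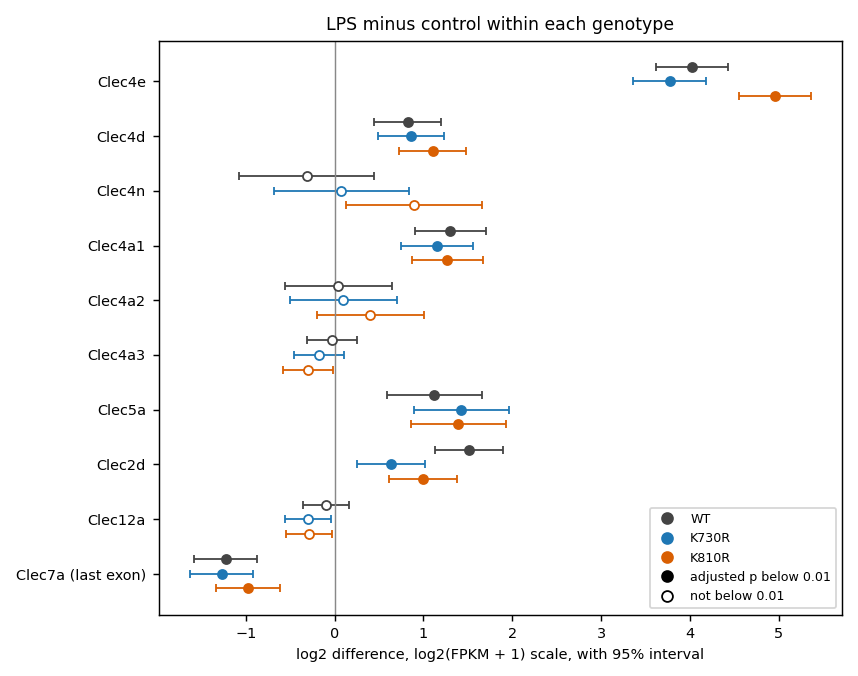
Log2 difference between LPS and control (horizontal axis, log2(FPKM + 1) scale) for each receptor in WT, K730R and K810R, with 95% intervals. Filled points passed an adjusted p of 0.01. Clec4e stands between 3.77 and 4.96, 4 other receptors between 0.64 and 1.51, and the Clec7a last exon between -1.27 and -0.97.

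Without LPS no receptor passed the threshold in either mutant. In K730R against WT 0 of 9 were called in limma, against 0.268% of all genes, and the median log2 difference of the 9 was 0.03. In K810R against WT 0 of 9 were called, against 1.58% of all genes in either direction. At an unadjusted p below 0.05 there were 1 (Clec2d) and 3 (Clec4e, Clec4n, Clec5a) of the 9, against 7.7% and 14.1% of all genes. In K810R 7 of the 9 had a negative difference, as had 39.1% of all genes, and the median was -0.35 against 0.07 over all genes.

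The widest of these differences was that of Clec4e in K810R control, -0.91 (-1.32 to -0.50, adjusted p = 0.014 in limma), for which the 3 K810R libraries (30.6 to 42.9 FPKM) lay below the 3 WT libraries (55.7 to 83.8 FPKM). It passed the threshold after median-of-ratios scaling (-1.003, adjusted p = 0.0058) and with library weights (-0.93, adjusted p = 0.0026). Clec4n differed by -0.80 (-1.56 to -0.03, adjusted p = 0.33), Clec5a by -0.64 (-1.18 to -0.10, adjusted p = 0.24) and the Clec7a last exon by -0.37 (-0.72 to -0.01, adjusted p = 0.34). Clec12a differed by 0.00 (-0.26 to 0.26).

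Marker levels of several cell types also differed in the same K810R control libraries. All 6 macrophage markers tested had negative differences, none called in limma and 2 at an unadjusted p below 0.05, with a median of -0.20 against 0.07 over all genes tested, and Csf1r was at 360 to 415 FPKM against 480 to 538 FPKM in WT control, with no overlap. The 4 mast cell markers with values summed to 0.797 to 2.64 FPKM against 4.26 to 4.70 FPKM, and all 3 tested had negative differences, none called and 1 at an unadjusted p below 0.05. The 3 monocyte markers summed to 11.6 to 14.2 FPKM against 29.5 to 41.0 FPKM in WT control, with Ly6c2 called lower (-1.86, adjusted p = 3.9e-04 in limma) and Ccr2 at 3.10 to 6.32 FPKM against 1.50 to 3.46 FPKM. Gata6, which marks resident peritoneal macrophages, was called higher (1.64, adjusted p = 0.0038), at 4.23 to 10.9 FPKM against 1.13 to 1.47 FPKM. The 6 genes of that list summed to 8.41 to 22.2 FPKM against 12.8 to 14.8 FPKM. Of the 5 tested, Gata6 alone had a positive difference and the other 4 were negative and not called, with a median of -0.45 over the 5 against 0.07 over all genes tested. Timd4 was at most 0.562 FPKM against 1.05 to 1.49 FPKM, and Alox15 was at 0.675 to 1.36 FPKM against 1.37 to 1.98 FPKM, with no overlap for either. Neutrophil markers summed to 54.0 to 63.7 FPKM against 34.9 to 47.7 FPKM, mostly S100a8, and the intestinal epithelial sum differed as given above. The part of any of these in the values of Clec4e and the other receptors was not tested.

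With LPS 0 of the 9 receptors were called by limma in K730R against WT, where 0.0% of all genes were, and 0 of 9 in K810R against WT, where 0.134% were. At an unadjusted p below 0.05 there were 0 in K730R and 1 (Clec4a3) in K810R, against 7.69% and 21.8% of all genes. Clec4e, the receptor farthest from WT without LPS, differed with LPS by 0.03 (-0.38 to 0.44) in K810R and by 0.05 (-0.36 to 0.46) in K730R. Clec4d differed by 0.01 (-0.37 to 0.38) and 0.07 (-0.30 to 0.45) in the same order. Clec4a3 differed in K810R by -0.38 (-0.66 to -0.09, adjusted p = 0.13), Clec4a1 by -0.39 (-0.79 to 0.01) and Clec2d by -0.33 (-0.71 to 0.05), and in each of these 3 the K810R libraries lay below those of WT, as for 7.89% of all genes. Median-of-ratios scaling shifted the median of all genes in this K810R comparison by -0.12, moved the median of the 9 receptors from -0.19 to -0.34 and changed the calls over all genes from 5 higher and 8 lower to 4 and 15. By limma none of the 9 responses to LPS differed between a mutant and WT at the threshold, against 0.0412% of all genes for K730R and 0.124% for K810R. At an unadjusted p below 0.05 they were Clec2d for K730R, and Clec4e and Clec4n for K810R, against 7.02% and 13.2% of all genes. The comparisons share their WT and control libraries.

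**Figure D4:**
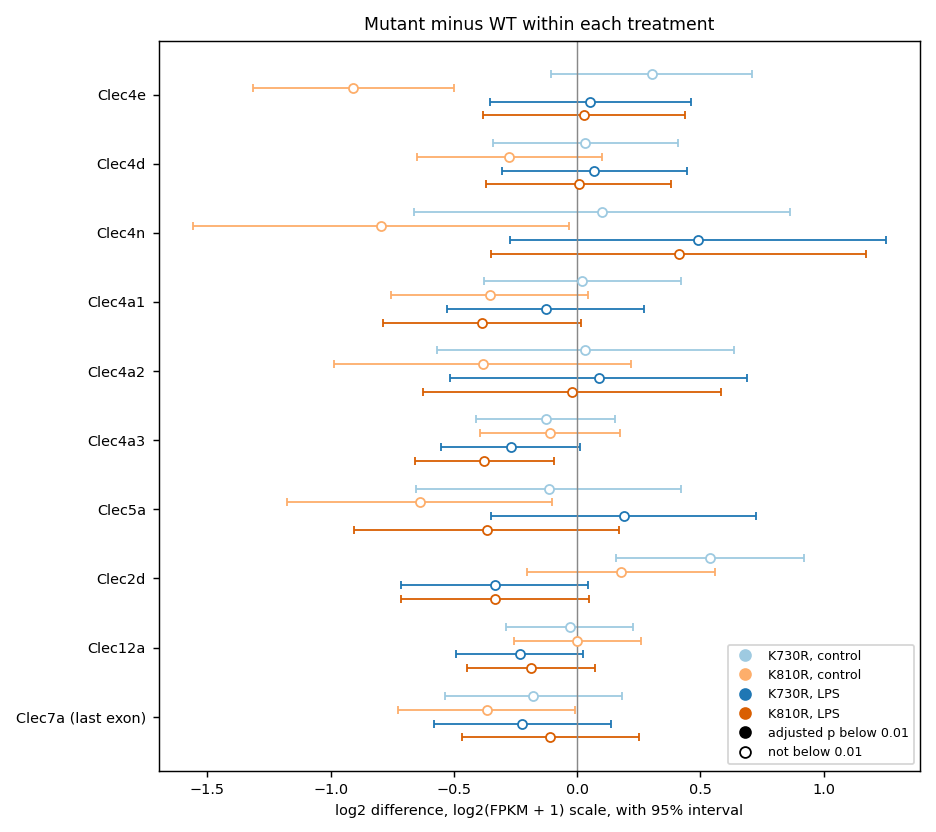
Log2 difference between each mutant and WT (horizontal axis, log2(FPKM + 1) scale) for each receptor, without LPS in pale and with LPS in full colour, with 95% intervals. No point passed an adjusted p of 0.01, and Clec4e in K810R control, at -0.91, lies farthest from 0.

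Of 30 signalling genes below these receptors that were listed and tested, 10 were called higher and 8 lower with LPS in WT, 8 and 12 in K730R, and 10 and 9 in K810R. Over all genes tested the shares called higher and lower were 10.4% and 23.9% in WT, 9.32% and 26.5% in K730R, and 9.08% and 19.7% in K810R. In WT the widest rises were Src, a kinase (3.26 on the log2 scale), Nfkb2, an NF-κB precursor (3.12), and Malt1, the protease of the CARD9 complex (2.82). The widest falls among the genes called were Nfatc2, a calcium-regulated transcription factor at 1.76 to 2.17 FPKM in control and listed at 0 in all 3 LPS libraries, which reached the filter only in control libraries, Vav2, a guanine nucleotide exchange factor (-1.53), and Tyrobp (-1.20). Src, Nfkb2 and Malt1 also led the rises in both mutants, where the widest falls among the genes called were Vav3 (-1.65), Vav2 and Tyrobp in K730R and Vav2, Cblb (-1.27) and Nfatc2 in K810R. Vav3 differed by -1.19 in K810R and was not called there.

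The adaptors of the activating receptors went opposite ways. Tyrobp, the adaptor of Clec5a, fell from 2023 ± 204 to 879 ± 52.8 FPKM (SD, n = 3) in WT, while Fcer1g, the adaptor of Clec4e, Clec4d and Clec4n, rose from 642 ± 25.7 to 1107 ± 47.6 FPKM (0.79, adjusted p = 9.7e-06 in limma). Syk rose by 0.70 (adjusted p = 2.4e-04) and Card9 fell by 1.03 on the log2 scale (adjusted p = 2.0e-06), while Bcl10, at 0.13, did not pass the threshold. Fcer1g, Syk, Card9 and Bcl10 were named after their values were seen. Fcer1g and Syk were called higher, and Tyrobp and Card9 lower, in the mutants too. Between genotypes 1 of the 30 was called, Cblb, a ubiquitin ligase that restrains Syk signalling, which was higher in K810R control (9.16 ± 1.87 FPKM) than in WT control (3.98 ± 0.308 FPKM), by 1.02 on the log2 scale (adjusted p = 0.0031 in limma), in a comparison where 1.58% of all genes were called.

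Of 47 other genes with a C-type lectin domain 14 were tested. With LPS 4 were called higher and 5 lower in WT, 3 and 5 in K730R, and 2 and 5 in K810R. Of the 14, 3 reached the filter of 1 FPKM only in LPS libraries and 3 only in control libraries, so these counts are not set against the shares of all genes. In WT the calls included Olr1, the neighbour of Clec7a that encodes the oxidised-LDL receptor LOX-1, which was higher with LPS (3.04). The Clec7a last-exon row carried under the number of Olr1 lies outside the span of Olr1 and was not part of the Olr1 value. Mrc1, the mannose receptor, was called lower, from 26.9 ± 2.63 to 6.22 ± 0.138 FPKM (-1.95), as was Clec4b1, a neighbour of the Clec4a genes (-1.54). Of the genes that reached the filter on one side only, Cd69 was at 0.374 to 0.591 FPKM in WT control and 4.20 to 15.4 FPKM with LPS, and Klrk1 was at most 0.688 FPKM and 2.03 to 8.49 FPKM. Clec10a, a galactose-type lectin, was at 1.80 to 4.03 FPKM in WT control and at most 0.677 FPKM with LPS. Clec2i, a relative of Clec2d, was at 1.88 to 3.54 FPKM in the mutants' control libraries and at most 0.727 FPKM in their LPS libraries. In K810R Cd302 was called higher, by 1.03 on the log2 scale, and so was Olr1. Of 6 ligands and partners 4 were tested: Tlr2 rose (1.96) and Cd37, the tetraspanin that binds dectin-1, fell (-0.74) in WT, and both calls were also made in each mutant.

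The gene whose levels over the 18 libraries were most like those of a receptor was found by Pearson's r of log2(FPKM + 1). For Clec4e it was Acsl1 (r = 0.996), for Clec4d Sqor (r = 0.976), for the Clec7a last exon Mcur1 (r = 0.970) and for Clec4a1 Tdrd7 (r = 0.966). Clec2d was most like Fas (r = 0.944), Clec5a like Itgal (r = 0.934), Clec4n like Cyb5a (r = 0.913) and Clec12a like Fnip2 (r = 0.895). The likeness was weakest for Clec4a3 with Plcl2 (r = 0.839) and Clec4a2 with Casz1 (r = 0.785). The 18 points share the LPS contrast and the libraries, so these values describe and test nothing.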

How the data were processed

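RNA sequencing was done on 18 libraries, 3 in each of 6 groups taken from the sample labels. The authors deposited FPKM values per transcript event (20 kinds of event, such as first exon, last exon and skipped exon), in 80071 to 90401 rows per library. Read counts were not used here, so depth is unknown and no counting interval is given. The aligner and counter are not given in the sources used here; the submitters' notes name the human build hg18, but the coordinates match mouse GRCm38 and GENCODE M21. Genes were fitted as log2(FPKM + 1) in limma 3.58.1 (R 4.3.3) with an intensity trend, all 6 groups in 1 fit, after a filter of 1 FPKM in at least 3 libraries, with Benjamini-Hochberg adjustment over 9707 genes and the study's threshold of 0.01. The fit was tested on simulated data. Exon shares were compared by exact permutation (scipy 1.17.1). Other pseudocounts (0.1 and 5), filters, scaling, weights, event kinds and samples left out were tried. By rule the text names the 10 receptors, Tlr4, the gene most like each receptor, and up to 3 called rises and 3 called falls of each list in a comparison. Marker genes of the cell type lists, and Fcer1g, Syk, Card9, Bcl10 and Vav3 in K810R, are named outside that rule, after their values were seen. The receptors and lists were chosen with earlier results of these data known.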

Additional observations from a re-analysis of the deposited data

How the results depend on the processing

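No result changed sign past the threshold under any setting. With LPS 5 receptors were called in each genotype. First-exon sums gave 3 in WT, 4 in K730R and 3 in K810R, since Clec4a1 has no first-exon rows within its annotated span and, in WT and K810R, Clec2d was no longer called (adjusted p = 0.15 and 0.36) at the same log2 differences of 1.51 and 0.997. Leaving out 1 library gave 4 to 5 in WT, 4 to 5 in K730R and 5 in K810R. Leaving out 1 replicate number in all groups gave 3 to 4, 2 to 4 and 3 to 5, with fewer libraries in each fit. In K810R against WT without LPS the count went from 0 to 1, Clec4e, with median-of-ratios scaling, library weights or a threshold of 0.05. Over 45 pairs of same-numbered libraries the correlation of deviations from the group means ran from -0.32 to 0.099, and 0 exceeded 0.1. Low correlations cannot settle whether such libraries were paired, which the sources used here do not give. With the replicate block the K730R count was 4 in place of 5, without Clec2d (adjusted p = 0.013), and 0 other counts changed. The same call was lost with no filter (adjusted p = 0.012), with no trend (0.0104) and with only the groups compared in the fit (0.044), which also gave 4, with its log2 difference at 0.64 in all 4 settings. The 3 libraries per group and the unknown depth limit the precision, and of the 10 receptors Clec4n and Clec4a2 had the widest intervals in every comparison.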
